A study of Caenorhabditis elegans with 9 samples.

Results

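The comparison described here sets whole Caenorhabditis elegans given a high-fat condition together with farrerol (FA) against control animals (OP). It uses 6 of the 9 libraries of the series, 3 in each of these groups. The genes described are all named genes with at least 1 FPKM (fragments per kilobase, a level per gene length and library depth) in at least 3 of the 6 libraries. These were 14345 of the 46986 genes in the table, 13671 of them protein-coding and 674 of other kinds. F28B4.4 entered with a third-highest value of 1.001 FPKM and E02H9.13 stayed out with 0.99992 FPKM.

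OP is the control group of the series; its columns carry the name OP50, which is also the name of the Escherichia coli strain on which worms are usually grown. FA animals received the high-fat condition (the series title speaks of fat accumulation induced by citrate) and farrerol, a flavanone of Rhododendron plants. The high-fat condition and farrerol therefore differ together between FA and OP, and their parts in any difference cannot be told apart here. No source used here states the strain, age, developmental stage, doses or duration, so a difference in age or stage between the groups cannot be told apart from the treatment. Separate cultures are not stated for the replicates of a group. The p-values then reflect only how far these libraries spread, and that spread may be technical.

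C. elegans keeps most of its fat in the intestine and the epidermis, where enzymes of the endoplasmic reticulum build triglyceride on lipid droplets and mitochondria and peroxisomes break fatty acids down. The intestine of an adult hermaphrodite also makes yolk, lipoprotein particles built on vitellogenins that growing oocytes take up. Insulin-like signalling holds the forkhead transcription factor DAF-16 out of the nucleus, and active DAF-16 raises genes of stress resistance and lowers others, vitellogenin genes among them. The series title asks whether farrerol acts on fat through DAF-16.

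In FA, yolk genes, oocyte and eggshell genes, sperm genes and a large group of cuticle collagens were lower than in OP. In the other direction, 9 of 16 genes of peroxisomal fatty acid oxidation, 16 of 42 glutathione S-transferases, several infection-response genes and single genes such as spp-9 and cpt-3 were higher. Of the 14345 genes tested, 1824 (12.7%) passed limma's test at a Benjamini-Hochberg adjusted p under 0.05. These comprised 590 genes higher in FA (4.11% of all tested) and 1234 lower (8.6%). The difference was at least 2-fold for 991 of them (6.91%), 287 higher and 704 lower, and at least 4-fold for 68 higher and 100 lower. The median difference over all genes tested was 0.02 on the log2(FPKM + 1) scale, on which every log2 difference below is given as FA minus OP with its standard error.

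The libraries held 17514542 to 21419867 reads on genes, and 1 read in a gene of 1 kilobase equals 0.0434 to 0.0574 FPKM. The first principal component carried 62.8% of the variance and separated the groups, with OP at -41.3 to -25.8 and FA at 13.9 to 46.5. The FA libraries were not alike: FA replicate 1 was the FA library nearest to OP in 1431 of the 1824 called genes (78.5%), and OP replicate 1 the OP library nearest to FA in 1188 (65.1%). FA replicates 2 and 3 lay apart on the second component, at -29.3 and 30.3. The count of calls moved with single libraries. Leaving out OP replicate 1, 2 or 3 gave 1296, 567 or 653 calls, and leaving out FA replicate 1, 2 or 3 gave 2449, 780 or 934 calls. Every gene called both with all 6 libraries and with 1 left out had the same direction in both. Such fits share all libraries but 1, and only genes called in both were compared, so a change of direction was hardly possible. With no filter on low values, 446 of 22873 genes were called. For single genes below, the libraries whose absence ended a call are named. The groups did not overlap in 99.8% of the called genes and in 31.3% of all genes tested. A lack of overlap given below for a called gene therefore adds little to its call.

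**Figure D1:**
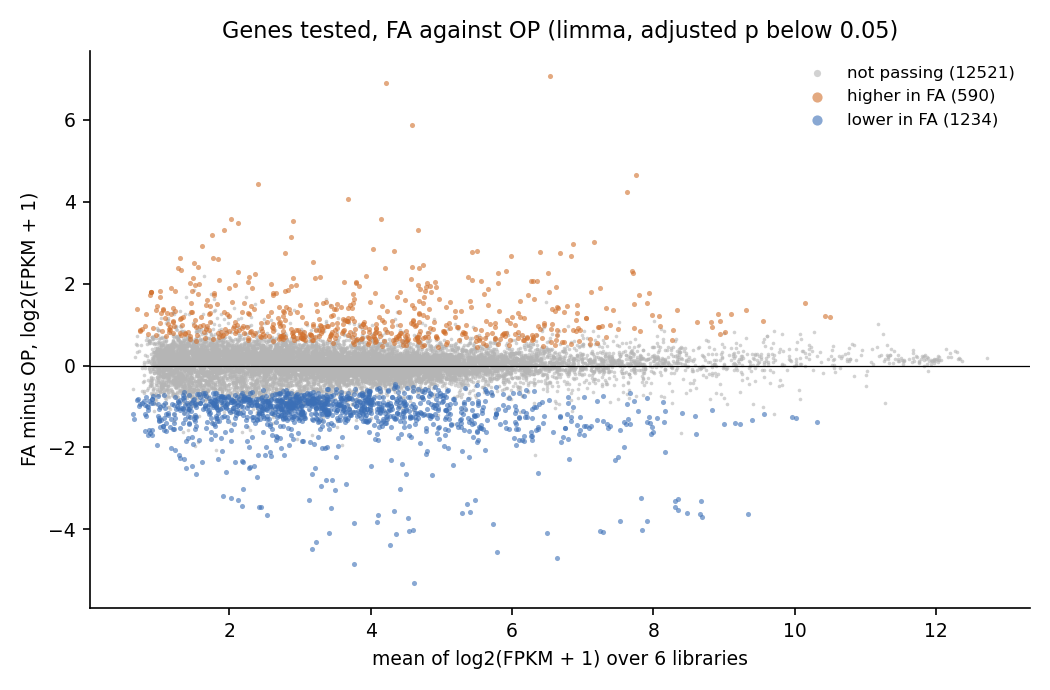
Each point is 1 of the 14345 genes tested; the horizontal axis is the mean of log2(FPKM + 1) over the 6 libraries and the vertical axis the difference FA minus OP. Orange marks the 590 genes called higher, blue the 1234 called lower and grey those not passing; the largest differences lie at 7.07 (spp-9) and -5.30 (col-8).

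Among the protein-coding genes the largest increase was that of spp-9, a member of the saposin-like family, whose proteins bind or perforate membranes. It stood at 4.26, 8.08 and 9.81 FPKM in OP and at 697, 2204 and 806 FPKM in FA. The rule by which the largest differences were named required that the groups not overlap. The log2 difference of spp-9 was 7.07 ± 0.42 (adjusted p = 0.000147). cpt-3, which encodes a carnitine palmitoyltransferase of the enzyme family that admits long-chain fatty acids to mitochondria, stood at 0.893, 0.658 and 0.602 FPKM in OP. In FA it stood at 137, 352 and 171 FPKM, which made the ratio of the mean FPKM values 307 and the log2 difference 6.89 ± 0.30. Its adjusted p was 3.84e-05. cpt-3 is 1 of 108 genes that reached 1 FPKM in every FA library and in no OP library, of which 60 were called higher; 116 genes did so in OP alone, of which 85 were called lower. Such genes entered the test only through the group in which they were high, and so had to differ.

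A second saposin-like gene, spp-12, rose from 1, 2.75 and 3.19 FPKM to 90.2, 555 and 121 FPKM (log2 difference 5.86 ± 0.59, adjusted p = 0.00102). far-3, a fatty acid and retinol-binding protein gene, rose from 42.5 ± 7.14 to 1225 ± 632 FPKM (SD, n = 3; log2 difference 4.65 ± 0.40, adjusted p = 0.000569). It overlaps far-5, and no source used here states how reads were divided between them. The infection-response gene irg-3 rose from 45.7 ± 12.23 to 919 ± 392 FPKM (log2 difference 4.23 ± 0.32, adjusted p = 0.000245). In all 3 genes FA replicate 1 was the lowest FA library. It lay above every OP library, as the naming rule required.

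F48C1.9 was close to undetected in OP, with 0, 1 and 2 reads, against 54, 227 and 257 reads in FA, or 9.57, 39.5 and 34.4 FPKM. F49C12.4 and F49C12.2, both on chromosome IV, were at 0.19 ± 0.0879 and 0.322 ± 0.219 FPKM in OP and at 14.5 ± 7.63 and 15.9 ± 10 FPKM in FA. R05H10.1 rose from 4.18 ± 0.555 to 65.2 ± 27.7 FPKM, with a log2 difference of 3.58 ± 0.31. No function is assigned to these 4 genes here. F48C1.9, F49C12.4 and F49C12.2 reached 1 FPKM only in FA, so they entered the test only through that group and had to differ. ilys-2, an invertebrate-type lysozyme gene, rose from 1.33 ± 0.943 to 26.8 ± 12.9 FPKM and clec-3, a C-type lectin gene, from 1.53 ± 0.653 to 22.4 ± 11 FPKM.

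The other 3 of the 14 largest increases depended on single libraries. ugt-35, a UDP-glucuronosyltransferase gene, read 1.96, 8.67 and 59.8 FPKM in FA against at most 0.407 FPKM in OP. Its adjusted p was 0.0376, and the call ended without any OP library or without FA replicate 2 (up to 0.117). The cytochrome P450 gene cyp-13B1 read 25.1, 81.3 and 244 FPKM in FA against 7.32 ± 2.15 FPKM in OP (adjusted p = 0.0137) and missed the threshold without OP replicate 3 or FA replicate 2 (up to 0.0604). clec-74 read 1.4, 17.6 and 22.4 FPKM in FA against at most 0.159 FPKM in OP (adjusted p = 0.0219); its call ended without any library other than FA replicate 1 (up to 0.083). In each of the 3 genes all FA values exceeded all OP values, which the rule for naming them required. ugt-35 and clec-74 reached 1 FPKM only in FA, and so entered the test only through that group.

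**Figure D2:**
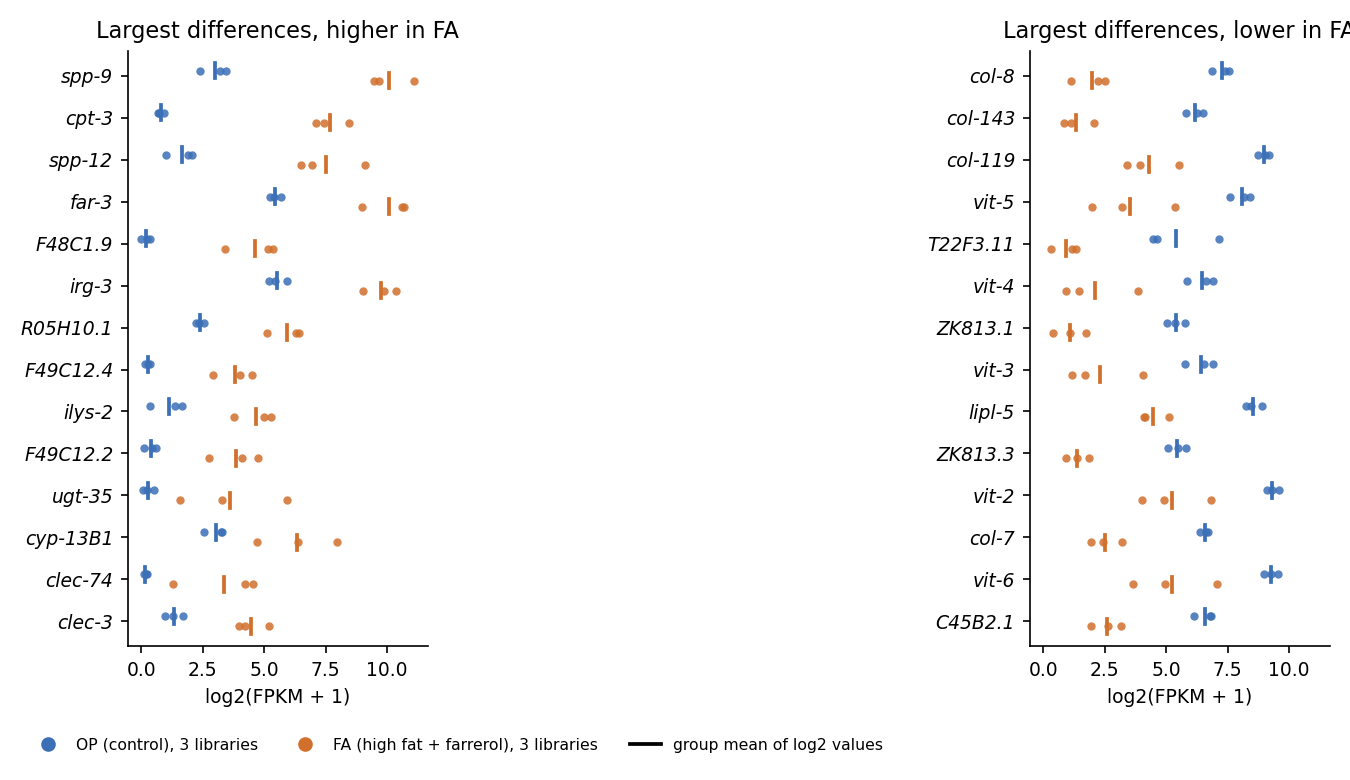
Values of log2(FPKM + 1) in each of the 6 libraries (points; OP blue, FA orange) with the mean of each group (bars), for the 14 protein-coding genes with the largest increase (left) and decrease (right) by the naming rule. OP and FA points do not overlap in any of the 28 genes, which the rule required; FA points spread widely in ugt-35, cyp-13B1 and the vit genes.

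The largest decreases belonged to cuticle collagens and yolk proteins. The collagen gene col-8 fell from 114.9, 166 and 185 FPKM to 3.74, 4.77 and 1.18 FPKM (log2 difference -5.30 ± 0.34, adjusted p = 0.000147). col-143 fell from 73.3 ± 17.2 to 1.73 ± 1.29 FPKM, col-119 from 512 ± 77.9 to 23.1 ± 19.3 FPKM and col-7 from 94.8 ± 11.55 to 5.16 ± 2.84 FPKM. lipl-5, a gene of the lysosomal lipase family, fell from 302, 349 and 484 FPKM to 33.8, 16.52 and 16.3 FPKM (log2 difference -4.09 ± 0.28, adjusted p = 0.000202). The lowest OP value of lipl-5 was far above the highest FA value, though the naming rule required a lack of overlap.

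ZK813.1 and ZK813.3 are neighbours on chromosome X. The first fell from 41.7 ± 10.8 to 1.26 ± 1.01 FPKM, the other from 43.8 ± 11.1 to 1.69 ± 0.852 FPKM. ZK813.2 and ZK813.7, which lie beside them and are named here for their position, fell by 3.23 and 3.85 on the log2 scale. T22F3.11 stood at 21.3, 23.5 and 139.8 FPKM in OP and at 1.52, 1.23 and 0.255 FPKM in FA, so its OP values were themselves spread widely. C45B2.1 fell from 98.3 ± 24.6 to 5.38 ± 2.6 FPKM. All 14 of the largest decreases kept their call with any library left out.

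Yolk genes fell as a whole. All 7 genes of the list of vitellogenins and the yolk receptor gene rme-2 were called lower, with a median log2 difference of -4.07, against 0.02 over all genes, and all 7 were called lower with any library left out. No value of these genes in FA reached the OP range. The groups did not overlap in 99.8% of all called genes, so this adds little to the calls. Among all genes tested the share was 31.3% (4490, in either direction). vit-2 stood at 625, 764 and 553 FPKM in OP and at 114, 15.1 and 29.3 FPKM in FA (log2 difference -4.07 ± 0.58, adjusted p = 0.00458). vit-6 stood at 609, 742 and 512 FPKM in OP and at 132, 11.55 and 30.2 FPKM in FA (-4.04 ± 0.68, adjusted p = 0.00831). FA replicate 1 held the most RNA of both genes among the FA libraries, yet lay below every OP library. vit-3, vit-4 and vit-5 are near-identical copies that can share reads; each fell, by 4.12, 4.37 and 4.55 on the log2 scale. rme-2, the receptor through which oocytes take up yolk, fell less, from 59.4 ± 15.6 to 19.3 ± 5.85 FPKM.

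Genes of late oocytes and the eggshell followed in the same direction. Of 26 tested, 21 were called lower (80.8%, against 8.6% of all genes) and 0 higher, with a median of -1.25. perm-2 and perm-4, which encode eggshell permeability barrier proteins, fell to 36.1 ± 21.5 and 54.3 ± 28.6 FPKM in FA, having been at 205 ± 25.5 and 247 ± 33.5 FPKM in OP. oma-2, an RNA-binding protein of maturing oocytes, stood at 32.9, 60.8 and 51.6 FPKM in OP and at 18.3, 12.4 and 14.1 FPKM in FA (log2 difference -1.6 ± 0.23, adjusted p = 0.00492). puf-5, another oocyte RNA-binding protein, fell from 66.2 ± 19.5 to 16.6 ± 6.98 FPKM. OP replicate 1 was the lowest OP library for all 4 genes, and the groups did not overlap in any of them. The number called lower in the list was 13 without OP replicate 2 and 14 without OP replicate 3, and 16 to 22 with another library left out. In whole-animal RNA, fewer cells of a type and less RNA per cell cannot be told apart.

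Sperm genes fell too. The list of major sperm proteins, the cytoskeletal and signalling proteins of nematode sperm, had 28 of 30 tested genes called lower, none higher, and a median of -1.48. The share called lower was 93.3%, against 8.6% of all genes. msp-10 stood at 59.8, 74.2 and 70.9 FPKM in OP and at 26.6, 15.6 and 9.72 FPKM in FA (-2.02 ± 0.29, adjusted p = 0.00492). FA replicate 3 was the lowest library and FA replicate 1 the highest within FA. These genes are near-identical copies and can share reads, so their count is not a count of independent measurements. The count depended on the libraries: leaving out OP replicate 1, 2 or 3 gave 18, 8 or 7 calls, and leaving out FA replicate 1, 2 or 3 gave 30, 7 or 12. Among 28 further spermatogenesis genes 9 were called lower and 1 higher (32.1% and 3.57%, against 8.6% and 4.11% of all genes). gsp-4, a sperm protein phosphatase, fell from 82.8 ± 14.9 to 36.2 ± 10.3 FPKM, ssp-37 from 4.71 ± 0.959 to 0.169 ± 0.195 FPKM and ssp-19 from 14.7 ± 0.76 to 3.56 ± 1.77 FPKM. ssp-37 reached 1 FPKM only in OP, and so entered the test only through that group. The gene called higher was fog-3, which directs germ cells to the sperm fate, at 5.98 ± 0.926 against 12.9 ± 2.6 FPKM (adjusted p = 0.0131, and 0.0535 without OP replicate 2). The lower calls in the spermatogenesis list numbered 3 without OP replicate 2 or 3, 4 without FA replicate 2, 5 without FA replicate 3, 6 without OP replicate 1 and 17 without FA replicate 1.

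Other germline lists moved less. Of 20 genes of germ granules and germline stem cells, 2 were called lower (10%, against 8.6% of all genes). They were nos-2, a translational repressor with maternal RNA, at 10.9 ± 3.94 against 2.57 ± 1.02 FPKM, and mex-3, at 47.5 ± 10.7 against 26.4 ± 5.7 FPKM. mex-3 lost its call without OP replicate 2 or 3 or FA replicate 2 or 3 (adjusted p = 0.0353, up to 0.139). Of 23 genes of meiotic chromosomes none passed, with a median of -0.07 and 19 of 23 differences below 0. Tissue markers were compared by their summed FPKM: 7 oocyte markers summed to 243 to 396 in OP and 96.3 to 158 in FA, with 6 called lower. The 8 sperm markers summed to 664 to 840 in OP and 224 to 540 in FA, with 5 called lower. The 8 germline markers summed to 416 to 580 in OP and 370.2 to 475 in FA, overlapping, with none called. Of 6 markers of early embryos none reached the filter, and pes-10 was at 0 in every library. How much of the fall in yolk, oocyte and sperm genes goes with the number of such cells, or with the stage of the animals, was not tested.

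**Figure D3:**
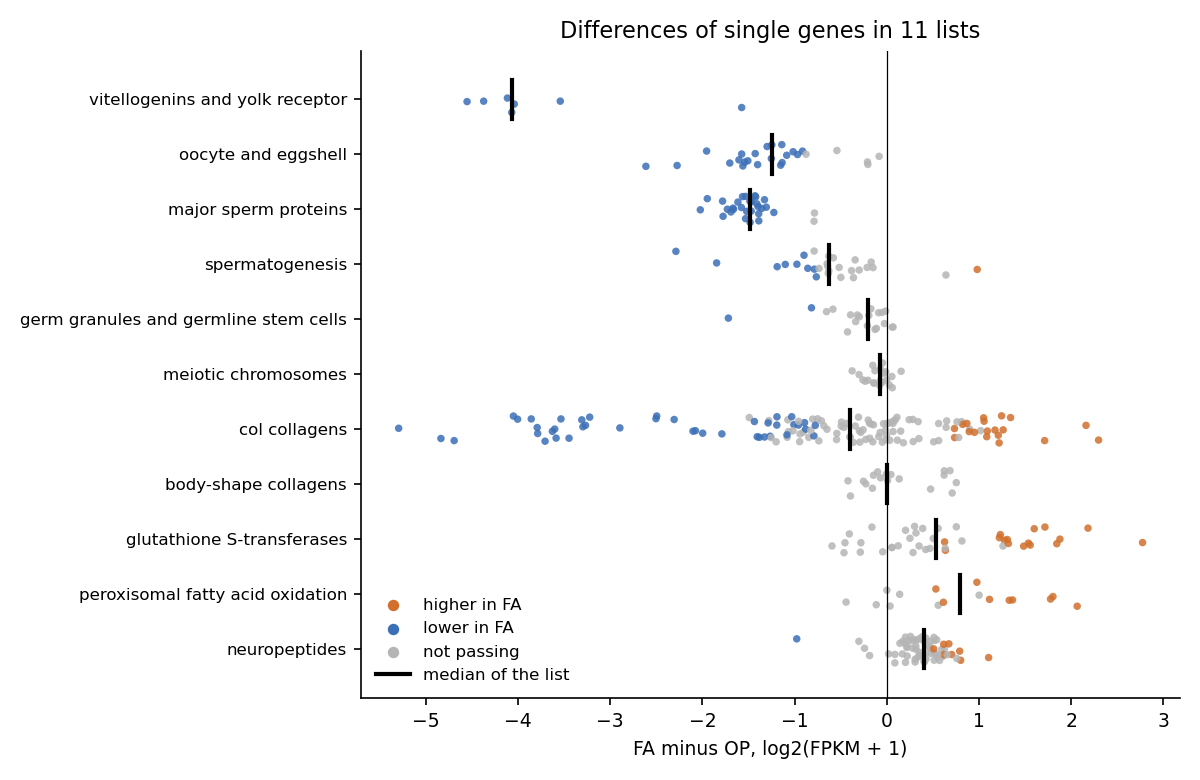
Each point is 1 tested gene of the list named on the left, placed by its difference FA minus OP on the log2(FPKM + 1) scale; orange is called higher, blue called lower, grey not passing, and the black bar is the list's median. Vitellogenins (median -4.07), major sperm proteins (-1.48) and oocyte genes (-1.25) lie left of 0, col collagens spread to both sides, and glutathione S-transferases (0.53) and peroxisomal fatty acid oxidation (0.80) lie to the right.

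Cuticle collagens of the col family moved in both directions. Of 137 tested, 42 were called lower and 19 higher (30.7% and 13.9%, against 8.6% and 4.11% of all genes). The family's median was -0.40. The lower group included highly expressed genes. col-19, a collagen gene of the adult cuticle, stood at 728, 1001 and 971 FPKM in OP and at 139, 48.5 and 37.9 FPKM in FA (log2 difference -3.79, adjusted p = 0.00133). col-124 fell from 1511 ± 261 to 129 ± 83 FPKM, col-20 from 931 ± 192 to 65.6 ± 45.9 FPKM and col-62 from 137 ± 21 to 10.8 ± 3.84 FPKM. The largest increase in the family was that of col-41. Lower calls numbered 26 to 30 when 1 library other than FA replicate 1 was left out and 49 without that one. Higher calls numbered 9, 4 or 3 when OP replicate 1, 2 or 3 was left out, 8 without FA replicate 2, and 18 without either of the other FA libraries. The call of col-19 came with no call among the other 7 epidermal markers; all 8 summed to 1436 to 1609 FPKM in OP and 659 to 915 FPKM in FA. Without col-19 the other 7 summed to 593 to 708 FPKM in OP and 621 to 866 FPKM in FA, so the sums overlapped.

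Of 18 collagen genes that set body shape none passed, and dpy-2 was at 78.5 ± 24.9 against 130 ± 21.4 FPKM (adjusted p = 0.0614); 2 of them were called higher without OP replicate 1. Of 14 moulting genes 1 was called higher and 1 lower (7.14% each, against 4.11% and 8.6% of all genes). mlt-10, expressed in moulting cycles, fell from 166 ± 13.6 to 83.6 ± 22.6 FPKM (adjusted p = 0.0161, up to 0.0646 without OP replicate 1 or 2) and overlaps lips-7. myrf-1, a regulator of larval development, rose from 30.4 ± 8.38 to 52.5 ± 8.03 FPKM (adjusted p = 0.0348, up to 0.134 without OP replicate 2 or 3 or FA replicate 2 or 3). Without OP replicate 1, 4 moulting genes were called higher and none lower.

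Hedgehog-related and patched-related genes, many of them expressed in the epidermis, had 6 of 66 called higher and 8 lower (9.09% and 12.12%, against 4.11% and 8.6% of all genes). The ground-like gene grd-10 rose from 45.7, 40 and 32.5 FPKM to 162, 219 and 129.6 FPKM (log2 difference 2.06 ± 0.21, adjusted p = 0.00102). grd-13 rose from 39 ± 15.2 to 163 ± 40.7 FPKM and grd-3 from 67.2 ± 8.48 to 169 ± 39.8 FPKM. The warthog gene wrt-8 fell from 12.15 ± 3.06 to 1.88 ± 0.688 FPKM. These 4 kept their call with any library left out. The lower calls of the list numbered 3 or 4 in each case, except 11 without FA replicate 1.

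Of 16 genes of fatty acid breakdown in peroxisomes 9 were called higher (56.25%, against 4.11% of all genes) and none lower. Their median was 0.80. acox-1.1, an acyl-CoA oxidase for the first step of the cycle, stood at 47.9, 38.1 and 27.4 FPKM in OP and at 94.7, 162 and 255 FPKM in FA (2.07 ± 0.33, adjusted p = 0.00728). maoc-1, the enoyl-CoA hydratase of the second step, stood at 84, 74.1 and 64.5 FPKM in OP and at 174, 270.1 and 374 FPKM in FA (1.8 ± 0.26, adjusted p = 0.00462). All FA values exceeded all OP values, with FA replicate 1 the lowest and FA replicate 3 the highest of the FA libraries in both genes.

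The later steps rose too. dhs-28, the dehydrogenase of the third step, rose from 201 ± 21.8 to 536 ± 168 FPKM (adjusted p = 0.0102, and 0.0502 without OP replicate 3). daf-22, the thiolase that ends the cycle and takes part in making ascaroside pheromones, rose from 132 ± 19.1 to 465 ± 127 FPKM (1.78 ± 0.23, adjusted p = 0.00302). The others called were acox-1.5, acox-1.6, the transporters pmp-2 and pmp-4, and the peroxisomal catalase ctl-2. The number called was 5, 4 or 3 when OP replicate 1, 2 or 3 was left out, and 8, 5 or 7 when FA replicate 1, 2 or 3 was.

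Mitochondrial fatty acid oxidation was divided. Of 29 genes 7 were called higher and 6 lower (24.1% and 20.7%, against 4.11% and 8.6% of all genes), with a median of -0.04. Beside cpt-3, the carnitine palmitoyltransferase genes cpt-5, cpt-2 and cpt-6 rose, cpt-5 from 12.7, 11.9 and 7.4 FPKM to 40.5, 57.2 and 102 FPKM (2.46 ± 0.32, adjusted p = 0.00298). acdh-10 and acdh-7, medium-chain acyl-CoA dehydrogenase genes, rose from 141.8 ± 18.2 to 421 ± 117 FPKM and from 98 ± 13 to 270.1 ± 85.9 FPKM, and ech-1.2 rose from 118.6 ± 8.27 to 238 ± 45.7 FPKM. The hydratase gene ech-7 fell, from 121, 137 and 136 FPKM to 37.5, 46.7 and 27.7 FPKM (-1.82 ± 0.19, adjusted p = 0.00102). hacd-1, a hydroxyacyl-CoA dehydrogenase gene, fell from 90.8, 101 and 286 FPKM to 10, 18.5 and 12.8 FPKM (-3.28 ± 0.40, adjusted p = 0.00248). acdh-4, acdh-5, acdh-6 and acdh-8 fell as well. In each of the genes with library values here the groups did not overlap. Without OP replicate 2 the lower calls numbered 2, and otherwise 5 or 6; higher calls numbered 5 or 6, and 10 without FA replicate 1.

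**Figure D4:**
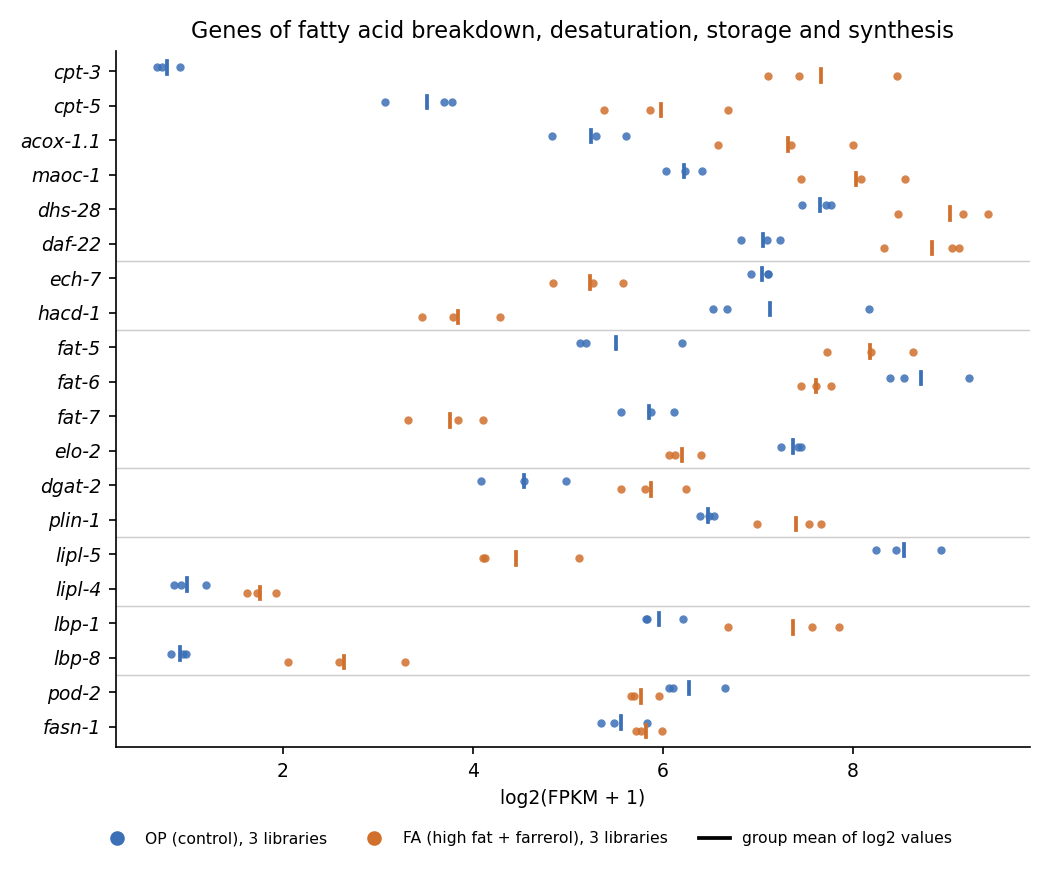
Values of log2(FPKM + 1) in each library (points; OP blue, FA orange) and the group means (bars) for 20 genes of fat handling, grouped by grey lines into genes of breakdown that were higher, breakdown genes that were lower, desaturases and an elongase, storage, lipases, lipid-binding proteins and synthesis. cpt-3 shows the widest gap, fat-5 lies opposite to fat-6 and fat-7, and the points of fasn-1 overlap.

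The stearoyl-CoA and palmitoyl-CoA desaturases went opposite ways. fat-5, the palmitate enzyme, rose from 34, 35.4 and 72.4 FPKM to 211, 394 and 290.0 FPKM (2.67 ± 0.31, adjusted p = 0.00206). The stearate enzyme fat-7 fell from 57.4, 46 and 68.5 FPKM to 8.97, 16.3 and 13.3 FPKM (-2.09 ± 0.22, adjusted p = 0.00122). fat-6, its close copy with which it can share reads, fell from 371, 333 and 593 FPKM to 174, 217 and 195 FPKM (-1.1 ± 0.23, adjusted p = 0.0164). Each was called with any library left out. None of these overlapped between groups, which was so for 99.8% of called genes. The elongase gene elo-2 fell from 165 ± 12.64 to 72.8 ± 9.53 FPKM. elo-8 fell from 17.4 ± 2.43 to 6.13 ± 3.24 FPKM, and missed the threshold without OP replicate 2 or 3 or FA replicate 2 (up to 0.0604). In all, 1 of the 17 desaturases and elongases was called higher and 4 lower (5.88% and 23.5%, against 4.11% and 8.6% of all genes).

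Of the 8 genes of fatty acid synthesis none passed, and their median was 0.04. The acetyl-CoA carboxylase pod-2 was at 77.8 ± 19.1 in OP and 53.9 ± 6.26 FPKM in FA (-0.50 ± 0.18, adjusted p = 0.114). The fatty acid synthase fasn-1 was at 46.5 ± 8.41 and 55.8 ± 5.87 FPKM (0.27 ± 0.16, adjusted p = 0.345). The citrate-cleaving enzymes acly-1 and acly-2 were at 30.6 ± 5.04 against 41.3 ± 3.99 FPKM and at 26.6 ± 2.3 against 19.9 ± 1.87 FPKM (adjusted p = 0.117 and 0.0997). The citrate transporter nac-1 was at 8.82 ± 0.755 against 13.2 ± 2.9 FPKM (adjusted p = 0.107) and was the 1 gene of the list called when FA replicate 1 was left out. Of 25 genes of the citrate and glyoxylate cycles none passed, with any library left out as well.

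Triglyceride synthesis and lipid droplet genes had 3 of 22 called higher and 1 lower (13.6% and 4.55%, against 4.11% and 8.6% of all genes). dgat-2, which makes triglyceride from diacylglycerol, rose from 30.4, 22.2 and 16 FPKM to 55.1, 74.8 and 46 FPKM (1.34 ± 0.25, adjusted p = 0.0109). plin-1, the worm perilipin that coats lipid droplets, stood at 83.1, 88.2 and 91.8 FPKM in OP and at 126, 201 and 184 FPKM in FA (0.92 ± 0.19, adjusted p = 0.0149). Neither gene overlapped between the groups, which was so for 99.8% of called genes. plin-1 missed the threshold without any library other than FA replicate 1 (up to 0.0629). The acyltransferase gene acl-5 rose from 9.53 ± 0.75 to 20.5 ± 8.96 FPKM and acl-13 fell from 7.75 ± 0.596 to 2.83 ± 1.59 FPKM. acl-5 lost its call without any library other than FA replicate 1 (up to 0.133), and acl-13, which overlaps dsb-1, without any OP library or FA replicate 3 (up to 0.0903). The higher calls of the list numbered 1, and 3 without FA replicate 1.

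Of 18 lipases 4 were called lower and 2 higher (22.2% and 11.1%, against 8.6% and 4.11% of all genes), with a median of -0.39. Differences were below 0 in 11 and above 0 in 7, and the median was -0.004 with no filter on low values. lipl-5 is described above. lipl-4, whose product frees lipid signals in the lysosome, was at 0.999 ± 0.252 against 2.4 ± 0.364 FPKM (adjusted p = 0.0326), and its call ended without any library other than FA replicate 1 (up to 0.141). lips-7 fell to 5.36 ± 1.05 FPKM, against 10.1 ± 1.2 FPKM in OP, and lips-3 to 22 ± 3.08 FPKM, against 33.9 ± 2.51 FPKM. lips-7 lost its call without any OP library or FA replicate 3 (up to 0.0882) and lips-3 without any library other than FA replicate 1 (up to 0.105). The adipose triglyceride lipase gene atgl-1 was at 15.7 ± 2.87 against 13.7 ± 2.33 FPKM (-0.19 ± 0.18, adjusted p = 0.585). With OP replicate 1, 2 or 3, FA replicate 2 or FA replicate 3 left out, no lipase was called higher and 1 or 2 were called lower; without FA replicate 1 the counts were 2 and 5.

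Acyl-CoA synthetases, which activate fatty acids, had 4 of 20 called higher and 4 lower. Each share was 20%, against 4.11% higher and 8.6% lower of all genes. acs-7 rose from 25.8 ± 6.73 to 74.8 ± 37.3 FPKM and acs-10 fell from 25.8 ± 5.26 to 12.8 ± 2.53 FPKM, and acs-18 fell from 7.97 ± 0.97 to 3.58 ± 1.1 FPKM. Each of these 3 lost its call without OP replicate 2 or 3 or FA replicate 2 or 3 (up to 0.0916). acs-2, often used as a readout of the fasting response, was at 89.1, 121 and 451 FPKM in OP and at 18.1, 103 and 25.6 FPKM in FA. Its groups overlapped, and the difference of -2.19 ± 0.70 did not pass (adjusted p = 0.0736). It passed without FA replicate 2 (0.0367), with equal library totals (0.0473), with library weights (0.0428) and with voom (0.0493), and its adjusted p reached 0.236 under robust moderation. Calls in the list fell to none without OP replicate 2 or 3.

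Among 16 genes of fatty acid and lipid-binding proteins, 3 were called higher (18.75%, against 4.11% of all genes): far-3, lbp-8 and lbp-1. lbp-8, whose product carries a lysosomal lipid signal to the nucleus, stood at 0.9747, 0.935 and 0.77 FPKM in OP and at 3.15, 8.75 and 5.01 FPKM in FA (1.72 ± 0.29, adjusted p = 0.00837). It reached 1 FPKM only in FA, and so entered the test only through that group. lbp-1 rose from 61.6 ± 9.83 to 173 ± 65.2 FPKM (adjusted p = 0.0136), and missed the threshold without OP replicate 1 or 2 or FA replicate 3 (up to 0.0579). The saposin-like list had 4 of 20 called higher, spp-9, spp-12, spp-21 and spp-23, and 1 lower. These shares were 20% and 5%, against 4.11% and 8.6% of all genes. In the list 10 differences were above 0 and 10 below. The gene called lower, spp-17, fell from 393 ± 44.7 to 96.2 ± 66.1 FPKM (-2.24 ± 0.40, adjusted p = 0.0102). Without FA replicate 1, 5 saposin-like genes were called lower, and without FA replicate 3, 5 of the lipid-binding list were called higher.

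Of 20 regulators of fat metabolism 1 was called higher (5%, against 4.11% of all genes), the nuclear receptor gene nhr-13, at 5.36 ± 0.399 against 9.34 ± 1.83 FPKM (adjusted p = 0.0366, up to 0.111 without any library other than FA replicate 1). The sterol regulatory factor sbp-1 was at 11.4 ± 2.47 against 9.63 ± 1.66 FPKM (adjusted p = 0.538), its partner mdt-15 at 37.9 ± 1.25 against 35 ± 0.728 FPKM (0.626) and nhr-49, which drives fatty acid oxidation genes, at 36.3 ± 0.749 against 48.6 ± 11.2 FPKM (0.184). Without FA replicate 1, 4 of the 20 were called higher.

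The transcript of daf-16, the factor named in the series title, stood at 38.8, 37.2 and 42.1 FPKM in OP and at 41.8, 42.8 and 41.5 FPKM in FA. The values overlapped, and the difference was 0.09 ± 0.12 (adjusted p = 0.691, 95% interval -0.18 to 0.37). The insulin receptor gene daf-2 was at 6.61 ± 1.08 against 6.7 ± 1.51 FPKM, the kinase genes age-1 and akt-1 at 9.75 ± 2.05 against 8.09 ± 1.85 FPKM and 36.2 ± 6.69 against 30 ± 6.24 FPKM, none past the test. Of 21 genes from the insulin receptor to DAF-16, 1 was called lower (4.76%, against 8.6% of all genes) and none higher. No gene of this list was called without OP replicate 2 or 3 or FA replicate 2. RNA level does not measure where the DAF-16 protein was.

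Of 24 insulin-like peptide genes 2 were called higher and 1 lower (8.33% and 4.17%, against 4.11% and 8.6% of all genes). ins-30 rose from 3.54 ± 0.595 to 8.37 ± 0.96 FPKM (1.05 ± 0.18, adjusted p = 0.00861). ins-27 rose from 26.7 ± 6.49 to 52.7 ± 15.9 FPKM, a call lost without any library other than FA replicate 3 (up to 0.141). ins-37 fell from 9.19 ± 2.92 to 4.04 ± 0.93 FPKM, a call lost without OP replicate 2 or 3 or FA replicate 2 or 3 (up to 0.0986).

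Known targets that active DAF-16 raises were mixed, with 5 of 23 called higher and 2 lower and a median of 0.33. These shares were 21.7% and 8.7%, against 4.11% and 8.6% of all genes. The small heat shock gene hsp-12.3 rose from 6.33, 5.57 and 7.33 FPKM to 16.7, 36.1 and 21.7 FPKM (1.74 ± 0.26, adjusted p = 0.00504). sod-3, the mitochondrial superoxide dismutase often used as a DAF-16 reporter, stood at 3.98, 3.59 and 4.77 FPKM in OP and at 6.58, 7.67 and 10.5 FPKM in FA (0.84 ± 0.20, adjusted p = 0.0278). All FA values of both genes lay above the OP values. The call of hsp-12.3 held with any library left out, and that of sod-3 ended without any library other than FA replicate 1 (up to 0.124). The catalase genes ctl-1 and ctl-2, near-identical copies in part, rose from 10.8 ± 0.532 to 20.3 ± 5.07 FPKM and from 80.8 ± 3.15 to 183 ± 59.1 FPKM. Both lost their call without OP replicate 2 or 3 or FA replicate 2, and each without 1 further library (up to 0.0853). hsp-16.48 fell from 44.4 ± 12.7 to 21.7 ± 9.02 FPKM with overlapping values, a call lost without any library other than FA replicate 3 (up to 0.153). ftn-1 was called higher and aqp-1 lower. Higher calls in the list numbered 1 without OP replicate 2 or FA replicate 2, 2 without OP replicate 1 or 3 and 3 without FA replicate 3, and lower calls 5 without FA replicate 3.

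Of 9 genes described as lowered by active DAF-16, 5 were called lower and 2 higher (55.6% and 22.2%, against 8.6% and 4.11% of all genes). Their median was -0.91. vit-2 and vit-5, described above, belong to this list. dod-22, a CUB-like gene, fell from 10.2, 12.8 and 8.49 FPKM to 2.2, 2.07 and 1.42 FPKM (-1.99 ± 0.21, adjusted p = 0.00102), and dod-23 fell from 13.7 ± 2.82 to 2.56 ± 2.15 FPKM. dod-24, a gene of the same CUB-like family, rose instead, from 42.9, 24.3 and 13.3 FPKM to 109, 247 and 152 FPKM (2.68 ± 0.40, adjusted p = 0.00537). The groups of dod-22 and dod-24 did not overlap. The remaining calls were dod-19, lower, and dod-17, higher. Lower calls numbered 4 or 5 with any library left out.

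Glutathione S-transferases, which join glutathione to foreign and oxidised compounds, were the detoxification family with the largest share of calls among the 3 listed. Of 42 glutathione S-transferase genes, 16 were called higher (38.1%, against 4.11% of all genes) and none lower, with a median of 0.53. gst-4, a standard reporter of the SKN-1 oxidative response, stood at 34.6, 34.3 and 25.8 FPKM in OP and at 164, 276 and 235.4 FPKM in FA (2.78 ± 0.21, adjusted p = 0.000245). gst-33 rose from 6.2 ± 0.704 to 33.5 ± 12.9 FPKM, gst-39 from 25.6 ± 4 to 99.8 ± 31.5 FPKM and gst-6 from 40.6 ± 3.25 to 138 ± 32.3 FPKM. These 4 kept their call with any library left out. Some members of the family are close copies. Higher calls numbered 10 without OP replicate 2 or 3 or FA replicate 3, 11 without FA replicate 2, 12 without OP replicate 1 and 18 without FA replicate 1.

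Of 24 oxidative stress genes 6 were called higher (25%, against 4.11% of all genes) and none lower (against 8.6%). gpx-1, a glutathione peroxidase gene, rose from 45, 38.2 and 33.5 FPKM to 163, 309 and 369 FPKM (2.75 ± 0.28, adjusted p = 0.00102). gpx-2 rose from 50.3 ± 1.74 to 90.4 ± 14.1 FPKM. gpx-3 rose from 13.2 ± 1.82 to 24.5 ± 5.46 FPKM, and lost its call without OP replicate 2 or 3 or FA replicate 3 (up to 0.0955). The transcript of skn-1 itself was at 47.7 ± 4.57 against 46.7 ± 6.23 FPKM (adjusted p = 0.921). The list's calls numbered 2 without OP replicate 2 or 3, 3 without FA replicate 2, 4 without OP replicate 1 or FA replicate 3 and 8 without FA replicate 1.

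Other enzyme families of detoxification were mixed. Of 57 UDP-glucuronosyltransferases 7 were called higher and 2 lower; ugt-1 rose from 3.65 ± 0.751 to 20 ± 4.21 FPKM (2.17 ± 0.20, adjusted p = 0.000692) and ugt-16 from 6.2 ± 2.73 to 28.5 ± 13.2 FPKM. Of 48 cytochrome P450 genes 5 were called higher and 5 lower (10.4% each, against 4.11% and 8.6% of all genes). cyp-14A5 rose from 6.04 ± 1.57 to 17 ± 2.09 FPKM. The decrease of cyp-34A8, from 6.59 ± 0.48 to 3.05 ± 0.209 FPKM, had an adjusted p of 0.0102, and 0.0516 without OP replicate 3. The higher UDP-glucuronosyltransferase calls numbered 3 without OP replicate 2 or 3 or FA replicate 2, 5 without FA replicate 3 and 12 without FA replicate 1. For cytochrome P450s they numbered 2 to 4, and 9 without FA replicate 1, and the lower calls ranged from 0 without OP replicate 3 to 5 without FA replicate 1.

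Heat shock genes had 2 of 19 called higher, hsp-12.3 and hsp-12.2, and 1 lower, hsp-16.48 (10.5% and 5.26%, against 4.11% and 8.6% of all genes). Without FA replicate 3 the lower calls were 6. hsp-12.2 rose from 247 ± 18.9 to 381 ± 18.4 FPKM, and lost its call without any OP library or FA replicate 2 (adjusted p = 0.0279, up to 0.118). None of 25 genes of the unfolded protein responses and none of 22 genes of autophagy and lysosomes passed, with all libraries or with any library left out.

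Immune genes were among the strongest single responses. Of 18 infection-response genes 6 were called higher and 1 lower (33.3% and 5.56%, against 4.11% and 8.6% of all genes). The list's median was 0.01. irg-5 stood at 19.6, 11.6 and 16.3 FPKM in OP and at 79.8, 141 and 126 FPKM in FA (2.78 ± 0.25, adjusted p = 0.000604), without overlap. zip-2, a bZIP factor of the intestinal infection response, rose from 195 ± 23.9 to 385 ± 55.2 FPKM. irg-8, listed as ZK6.11, was at 454 ± 213 against 229 ± 55.2 FPKM and did not pass (adjusted p = 0.104). Higher calls in this list numbered 3 without OP replicate 2 or 3 and 4 without FA replicate 2 or 3.

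Of 17 antimicrobial peptide genes 5 were called higher (29.4%, against 4.11% of all genes) and none lower (against 8.6%). nlp-29, a peptide gene of the epidermis induced by fungal infection and wounding, stood at 10.4, 12 and 9.44 FPKM in OP and at 40.7, 33.6 and 33.8 FPKM in FA (1.67 ± 0.15, adjusted p = 0.000631). The lowest FA library of nlp-29 was above the highest OP library, and its call held with any library left out. cnc-8, nlp-27 and nlp-28 rose by 0.92, 0.80 and 0.95 on the log2 scale, and each lost its call without OP replicate 2, without FA replicate 2 and without 2 further libraries (up to 0.156). Calls in the list numbered 1 without OP replicate 2 or FA replicate 2, 2 without OP replicate 3 and 3 without OP replicate 1.

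Of 106 C-type lectin genes 12 were called higher and 19 lower (11.3% and 17.9%, against 4.11% and 8.6% of all genes). clec-230 fell from 35.4, 22.2 and 23.2 FPKM to 2.6, 4.92 and 1.89 FPKM (-2.79 ± 0.28, adjusted p = 0.00102), clec-229 from 8.58 ± 0.0283 to 1.07 ± 1.16 FPKM and clec-247 from 2.27 ± 0.557 to 0.0387 ± 0.0344 FPKM. clec-247 reached 1 FPKM only in OP, and so entered the test only through that group. Higher calls numbered 6 without any OP library or FA replicate 2, and lower calls 9 without OP replicate 2 and 11 without OP replicate 3. Of 13 lysozyme genes 2 were called higher and 1 lower (15.4% and 7.69%, against 4.11% and 8.6% of all genes). ilys-5 fell from 415 ± 41.6 to 183 ± 94.3 FPKM, and its call ended without any library other than FA replicate 1 (adjusted p = 0.0279, up to 0.0948). lys-10 rose from 0.264 ± 0.281 to 1.45 ± 0.253 FPKM, a call lost without OP replicate 1 or 2 or FA replicate 2 or 3 (up to 0.0941). It reached 1 FPKM only in FA, and so entered the test only through that group.

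Among 19 digestive proteases, cpr-1, an intestinal cathepsin B-like gene, rose from 513, 617 and 920.2 FPKM to 2007, 2144 and 1647 FPKM (1.53 ± 0.27, adjusted p = 0.00912, and 0.0561 without OP replicate 2). The aspartic protease gene asp-17 fell from 10.7 ± 1.69 to 3.9 ± 1.06 FPKM, and asp-12 rose from 39.7 ± 8.17 to 132 ± 63 FPKM. The call of asp-12 ended without any library other than FA replicate 1 (up to 0.0918). None of the 8 intestinal markers was called, and their summed FPKM overlapped, at 4832 to 5330.1 in OP and 4717 to 10568 in FA.

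Neuropeptide genes differed mostly in 1 direction. Of 64 tested, 60 had a positive difference and the median was 0.40, against 0.02 over all genes. Calls numbered 8 higher and 1 lower (12.5% and 1.56%, against 4.11% and 8.6% of all genes). flp-8 rose from 36.6, 48.8 and 38 FPKM to 85.8, 115.1 and 70.9 FPKM (1.11 ± 0.20, adjusted p = 0.00999). nlp-18 and nlp-21 rose from 53 ± 3.27 to 85.1 ± 6.25 FPKM and from 36.5 ± 2.49 to 56.6 ± 4.24 FPKM, and both lost their call without OP replicate 2 or 3, nlp-21 also without FA replicate 2 (up to 0.0687). nlp-4 fell from 9.1 ± 0.93 to 4.16 ± 0.823 FPKM (adjusted p = 0.0111, and 0.055 without OP replicate 3). The 13 neuron markers had a median of 0.42, 2 were called higher (rab-3 and sng-1), and their sum was 490 to 508 FPKM in OP and 544 to 721 FPKM in FA. The shift was not particular to neurons. The 6 pharynx markers had a median of 0.51, with tnc-2 called higher, and summed to 361 to 465 FPKM in OP and 482 to 720 FPKM in FA. The 8 body wall muscle markers had a median of 0.27, with none called. Whether the share of neuronal RNA carries the neuropeptide difference was not tested. Higher calls in the list numbered 1 without OP replicate 2 or 3, 2 without FA replicate 2, 4 without OP replicate 1 and 13 without FA replicate 1. All 3 coelomocyte markers were called higher, with sums of 7.59 to 10.97 FPKM in OP and 15.1 to 19.1 FPKM in FA.

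Nuclear hormone receptors had 7 of 160 called higher (4.38%, against 4.11% of all genes) and 3 lower (1.88%, against 8.6%). nhr-11 rose from 2.32 ± 0.194 to 10.8 ± 3.33 FPKM (1.78 ± 0.23, adjusted p = 0.00337). nhr-8, which acts in sterol and xenobiotic metabolism, fell from 16, 13.46 and 15.1 FPKM to 5.89, 5.99 and 6.22 FPKM (-1.17 ± 0.15, adjusted p = 0.00274). The nhr-8 values were tight within each group and did not overlap. Higher calls numbered 1 or 2 without any library other than FA replicate 1, and 12 without that one.

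Several lists of general cell function had few or no calls. Of 78 cytosolic ribosomal protein genes 1 was called lower (1.28%, against 8.6% of all genes) and none higher. It was rpl-42, at 5.16 ± 1.3 against 1.88 ± 0.724 FPKM (adjusted p = 0.02, up to 0.0889 without OP replicate 2 or 3 or FA replicate 2 or 3). In the list 75 of 78 differences were above 0, with a median of 0.16. FA replicate 3 was below the other FA libraries in rps-28, at 1988, 1412 and 749 FPKM against 919, 829 and 846 FPKM in OP. Without FA replicate 3, 7 ribosomal protein genes were called higher. None of 37 nuclear and none of 10 mitochondrially encoded respiratory chain genes passed. Of 29 genes of glycolysis and gluconeogenesis 1 was called lower (3.45%, against 8.6% of all genes) and none higher. It was tps-2, a trehalose synthase gene, at 23.4 ± 0.966 against 16.19 ± 1.58 FPKM (adjusted p = 0.0424, and up to 0.164 with any library left out). Without OP replicate 1, 3 of the list were called lower.

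The methionine cycle and phosphatidylcholine list had 1 of 17 genes called in each direction (5.88%, against 4.11% higher and 8.6% lower of all genes). ckb-4, a choline kinase gene, rose from 15.8 ± 2.24 to 34.3 ± 3.77 FPKM (1.08 ± 0.15, adjusted p = 0.00474). sams-5, an S-adenosylmethionine synthetase gene, fell from 47.1 ± 11 to 23.5 ± 3.75 FPKM, a call lost without OP replicate 2 or 3 or FA replicate 2 or 3 (up to 0.059). None of 11 genes of propionate breakdown passed, and 1 was called lower without FA replicate 1; acdh-1, a reporter gene of diet and vitamin B12, was at 794, 684 and 392 FPKM in OP and 463, 335 and 342 FPKM in FA (adjusted p = 0.161). Histone genes, many of them near-identical copies, had 4 of 42 called higher and 2 lower (9.52% and 4.76%, against 4.11% and 8.6% of all genes). his-32 rose from 2.59 ± 0.119 to 15.7 ± 7.34 FPKM. The histone calls numbered 1 higher and 1 lower without OP replicate 2 or 3 or FA replicate 2. Of 6 genes of early embryonic regulators pal-1 was called lower (16.7%, against 8.6% of all genes). It was at 20.6 ± 2.54 against 11.1 ± 1.71 FPKM, a call lost without OP replicate 2 or 3 or FA replicate 2 (up to 0.0724). Of 9 amino acid transporter genes aat-7 was called higher (11.1%, against 4.11% of all genes). It was at 1.25 ± 0.521 against 3.49 ± 1.29 FPKM, a call lost without any library other than FA replicate 1 (up to 0.176).

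**Figure D5:**
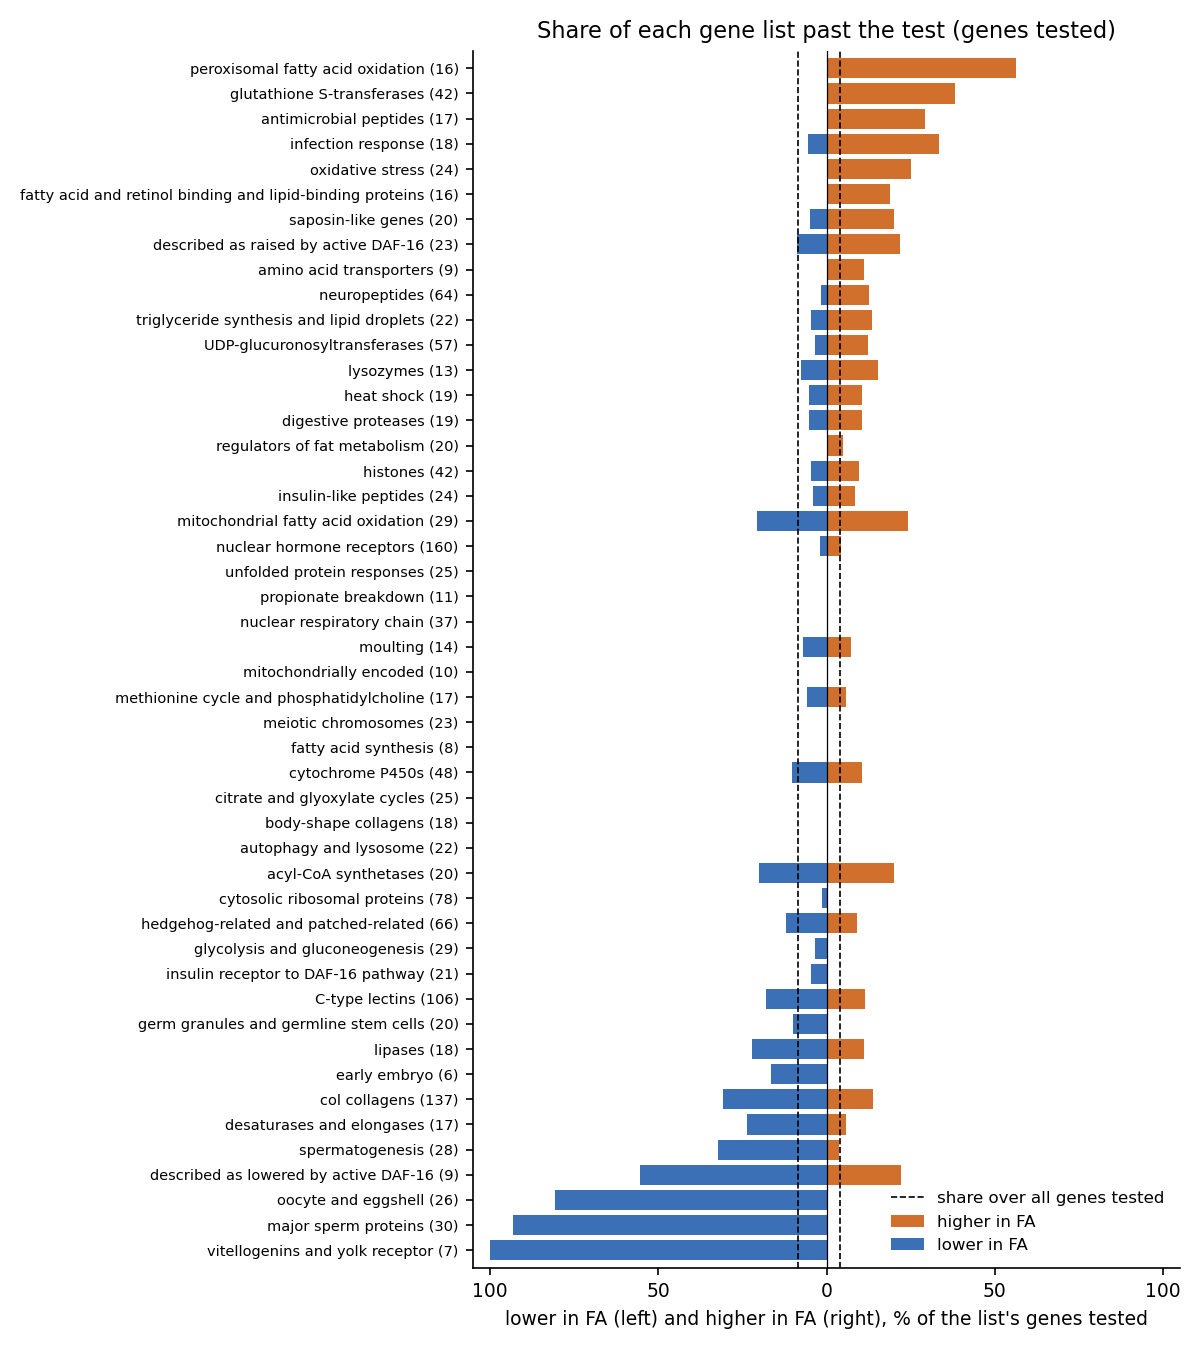
Bars give the share of each gene list's tested genes (number in parentheses) that were called higher in FA (right, orange) or lower (left, blue), in %; dashed lines mark the shares over all genes tested, 4.11% higher and 8.6% lower. Peroxisomal fatty acid oxidation and glutathione S-transferases stand at the top, vitellogenins, major sperm proteins and oocyte genes at the bottom, and lists such as the citrate cycle and autophagy have no bar.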

How the data were processed

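RNA of whole worms was sequenced in 9 libraries, of which the 3 OP and the 3 FA libraries were used. RNA came from a chloroform extraction, and an NEBNext Ultra II kit made the libraries, per the labels' protocols. The authors deposited 1 table of FPKM values per gene, with name, length, position and biotype, per the file headers. Per the submitters' processing notes, the build was WBcel235. Aligner, counter and strand setting: not given in the sources used here. Near-identical copies, antisense partners and genes that overlap may therefore share reads. Columns headed OP50 were taken as the OP samples with the same number.

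FPKM values are not counts, so limma 3.58.1 in R 4.3.3 was run on log2(FPKM + 1) with a mean-variance trend. The fit held the 6 libraries (4 residual degrees of freedom before moderation), and tests were two-sided with Benjamini-Hochberg adjustment over 14345 genes and a threshold of 0.05. Log2 differences understate the change of genes with low values. Each FPKM times gene length was a whole multiple of what 1 read is worth in its library for 100% of the values above 0 (tolerance 0.01 of a read), and limma's voom on these recovered reads was an alternative; it called 1988 genes. Other alternatives changed the pseudocount, the filter, the scaling, the spread, the thresholds, the replicate number as a block, or left out 1 library.

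The text names the 14 protein-coding genes with the largest difference in each direction among those called whose group means reached 5 FPKM on the higher side and whose groups did not overlap. It adds up to 4 genes with the lowest p of each of 48 gene lists, and 20 genes chosen for fat handling or DAF-16. Genes outside this rule (such as col-19, col-20, col-124, zip-2, acdh-10, ZK813.2 and irg-8) were chosen after their values were seen. The members and lists were chosen with earlier results of these data known. List members were matched by symbol, or by gene identifier where the table has another name. Replicates differed by more than sampling noise (chi-square of 18.8 to 87 per gene). Promoter sequences were not used here, and 1 gene result is not reported here. The columns of samples not compared were used only for 1 alternative, the spread over all 9 libraries, and 0 columns could not be matched to a sample.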

Additional observations from a re-analysis of the deposited data

How the results depend on the processing

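Of the called genes 32.3% were higher in FA. Under the pseudocounts 0.1, 0.5 and 5, a mean of at least 5 FPKM, the trimmed mean scaling, robust moderation, equal library totals, quantile normalization, no trend, the spread from all 9 libraries and voom, the count stayed within 1.5 times of 1824. It was 446 of 22873 genes with no filter (37.9% higher), 2904 with library weights (39% higher), 466 at an adjusted p under 0.01 (35.2% higher) and 991 with at least 2-fold (29% higher). The share was 29.6% with equal library totals and 38.9% with quantile normalization. With 1 library left out the count ranged from 567 to 2449 and the share from 31.2% to 43.1%. A stricter threshold lowers the count by construction; the cause of the other shifts was not tested. With no filter the lists kept fewer calls: 4 yolk, 8 oocyte, 3 major sperm protein and 24 collagen genes were lower, and 7 glutathione S-transferases and 2 peroxisomal genes higher. Calls of single named genes were lost 190 times with a library left out and 209 times under the other settings, and gained 20 and 66 times.

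Same-numbered OP and FA libraries had correlations of their deviations from the group means of -0.233, -0.21 and -0.121, and other pairs 0.02 to 0.19. Such deviations cancel within a group, so these values depend on each other. They cannot tell whether libraries of the same number shared a culture or batch. With the replicate number as a block 1083 genes were called.

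daf-2 changed sign with equal library totals (-0.0137), and ranged from -0.15 to 0.12 with 1 library left out. skn-1 ranged from -0.11 to 0.0801. Neither passed the test under any of these.

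Depth limits low genes: 78 tested genes had at most 3 reads in every library, 10 of them called. The promoter motif description was not run, since no promoter sequence was used.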

Other observations

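Gene families that the lists above do not name can be read from the domain names in the deposited table. Of 93 genes with a major sperm protein domain 64 were called lower in FA and none higher, and of 78 protein-tyrosine phosphatase genes 34 lower and none higher. Calcineurin-like phosphoesterases, the family of gsp-4, had 20 of 62 lower and none higher, SH2 domain genes 11 of 34 lower and none higher, and protein kinase genes 50 of 239 lower and 1 higher, cdk-14. Short-chain dehydrogenases went the other way, with 13 of 42 higher and 2 lower, against 4.11% and 8.6% of all genes tested. In that family dhs-9 rose from 49.8 ± 7.13 to 438 ± 184 FPKM (SD, n = 3; log2 difference 3.02, limma's adjusted p = 0.00102). CUB-like genes, which include dod-22, dod-24 and irg-5, had 8 of 37 higher and 6 lower. Domains were chosen after their values were seen, and families overlap.

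The share of genes called differed between chromosomes, without a test. On chromosome IV 16.3% of the tested genes were called, on chromosome V 14.2%, on chromosome III 9.36% and on chromosome X 9.67%.

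Of 6 ribosomal RNA genes 3 were called lower. rrn-1.1 stood at 343.5, 306 and 195 FPKM in OP and at 135.9, 119.4 and 176 FPKM in FA. These are copies of repeated units and can share reads.

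Of 111 piRNA loci tested 11 were called (9.91%, against 12.7% of all genes), 7 of them with at most 3 reads in every library; an FPKM of so short a gene is large for a single read. Of 31 loci without a gene name that reached the filter 2 were called lower.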
